A study of Mus musculus with 3 samples.

Results

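Choroid plexus epithelial cells formed 370 of the 6676 cells kept from the CD45- sort, and of 17894 cells kept in all, in single-cell RNA-seq of mouse brains carrying gliomas driven by human EGFR. A cell was counted as a member when it lay in a CD45- library, passed 500 UMIs (unique molecular identifiers, 1 per captured transcript), 500 genes and a mitochondrial share of at most 20%, held at least 20 UMIs of Ttr, and held at least 3 UMIs over Kl, Folr1, Clic6, Kcnj13 and Prlr. The members were thus chosen from the counts described here, and their levels against other cells are given as a description without a test. The cells came from 3 tumor samples taken at an early, a medium and a late stage, each split into CD45+ and CD45- cells (CD45 marks leukocytes) and captured as 4 libraries per sort on the inDrop droplet system. The 3 deposited sample records are sequencing runs rather than stages, each run holds libraries of every stage, and the stage and sort of a library come from the deposited annotation. The stage called late here is written as large in that annotation. The mice of all 3 stages carried, among other engineered alleles, a conditional human EGFR transgene, a germline Cdkn2a-/- deletion and a conditional luciferase reporter on a mixed background, and tumors were started by injecting a Cre lentivirus into the brain. Viable cells were sorted after dissociation. The paper describes dissociating tumors for sequencing, and brain without cerebellum in its flow cytometry protocol. How much tissue around a tumor was taken for sequencing is not settled by this. An epithelial cell in the sort need not have lain in the tumor or have carried a recombined allele. The early sample was pooled from 2 samples because few cells were recovered, each stage was 1 sample, and the libraries of a stage repeat the same suspension. No value below therefore carries a biological replicate error, intervals cover counting error only, and stage cannot be told apart from the sample that stands for it.

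The choroid plexus is a folded epithelium in the brain ventricles that lies over fenestrated capillaries. Its cells secrete cerebrospinal fluid by moving sodium, chloride, bicarbonate and water from blood to ventricle, load that fluid with transthyretin, growth factors, folate and other nutrients, and are sealed by tight junctions into the barrier between blood and cerebrospinal fluid. They share an origin with the ciliated ependymal cells that line the ventricle wall, and their transport work is linked to a high content of mitochondria.

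Droplet barcodes were shared between libraries of the same stage. Of the 370 members, 82 held a barcode found in another member, over 40 barcodes, none of them shared between stages, so that the members correspond to 328 distinct barcodes. Within a shared barcode the median range of the mitochondrial share was 0.870 percentage points, against an interquartile range of 11.1 points over all members, so columns with a shared barcode were close to each other and may be the same cell, in which case counting intervals over all columns are too narrow. Counts are given below for every column, and those with 1 column per barcode stand beside them where a result rests on cell numbers. Scrublet, a doublet caller, marked 69 of the 6676 CD45- cells (1.03%) and 6 of the members, which were kept.

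The levels of the 5 markers follow from the rule, which used all of them, and are a description that gives the label no support of its own. Ttr, which encodes transthyretin, a carrier of thyroid hormone and retinol in the fluid, stood at 117146, 149874 and 112495 CPM (UMIs of the gene per 1000000 UMIs of the pooled cells) in early, medium and late members. In all other CD45- cells it stood at 712, 154 and 36.1. Kl, the klotho coreceptor, had 1806, 1986 and 2469 CPM in the 3 stages, Folr1, the folate receptor, 453, 513 and 522, Clic6, a chloride intracellular channel protein, 1726, 1486 and 2141, and Kcnj13, an inwardly rectifying potassium channel, 120.0, 179.9 and 94.1. All 5 were present at every stage and each was lower by far in the other cells, where Kl had 16.7 and Kcnj13 0.0854 CPM. Markers of leukocytes were near 0: of Ptprc, Lyz2, Ms4a7, Mrc1, Cd52 and Cd3e together the members held 4 UMIs (1.75 CPM). The CD45- sort removes leukocytes, and other CD45- cells were low as well at 42.2 CPM, so this gives the label no support either. Markers of some other types were found more often, with 2227 UMIs of the oligodendrocyte list and 614 of the ciliated list in members.

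Few cells lay near the thresholds. The lowest members held 21, 28 and 30 Ttr UMIs, and 31 cells with enough UMIs of the other markers fell short on Ttr, the highest of them at 17 and 7 and with a median of 0. Another 31 cells held at least 20 Ttr UMIs but under 3 of the other markers, 14 of them with none, at a median of 74 Ttr UMIs and 2209 UMIs in all. Among members, 5 held 3 and 15 held 4 of the other marker UMIs, and the median was 22. Members had a median of 5152 UMIs (4841 in early, 7602 in medium and 4658 in late) against 2614 in other CD45- cells.

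Ranked by the ratio of their level in members to that in other CD45- cells, the 30 leading genes (found in at least 25% of members with at least 100 UMIs) began with Kcnj13, Slc4a5, Prr32, Kcne2, Ttr, Clic6, F5, 2900040C04Rik, Cox8b and Prcd. Several encode channels and transporters, and others encode tight junction and keratin proteins (Cldn2, Krt18, Krt8), coagulation factor V (F5), angiotensin-converting enzyme (Ace) and a secreted phospholipase (Pla2g5). F5 stood at 357, 601 and 685 CPM in early, medium and late members and 1.24 in other CD45- cells. Cox8b, a subunit of cytochrome oxidase better known from muscle and brown fat, stood at 318, 83.8 and 107 against 0.983. Ace stood at 321, 529.8 and 724 against 2.61. Each of these genes was present in all 3 samples.

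Promoter windows are shown for 4 ranked genes that were nearly silent in the other sorted cells, of which the rule used only Kcnj13. RefSeq windows from 250 bases before to 50 bases after a start were found for 23 of the 30 ranked genes, and are given on build GRCm38.p6, 5′ to 3′ on the strand of the gene. Capitals mark TAATCC on either strand, the core bound by OTX factors, and Otx2 is among the 30 genes. The first 2 windows belong to the genes of rank 1 and 2 and hold no such match. The next 2, of Ace (rank 14) and Pla2g5 (rank 21), were picked because they hold it, and each of these genes has a second window without it. Windows of Prcd (rank 10) and Otx2 itself (rank 26) hold it as well.
Kcnj13, chr1:87394680-87394979, minus strand: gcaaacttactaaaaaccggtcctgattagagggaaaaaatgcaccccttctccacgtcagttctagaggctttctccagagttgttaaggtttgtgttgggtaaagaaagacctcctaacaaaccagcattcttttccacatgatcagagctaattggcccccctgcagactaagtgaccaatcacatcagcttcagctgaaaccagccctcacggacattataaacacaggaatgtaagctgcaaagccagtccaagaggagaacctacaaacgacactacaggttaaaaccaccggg
Slc4a5, chr6:83237125-83237424, plus strand: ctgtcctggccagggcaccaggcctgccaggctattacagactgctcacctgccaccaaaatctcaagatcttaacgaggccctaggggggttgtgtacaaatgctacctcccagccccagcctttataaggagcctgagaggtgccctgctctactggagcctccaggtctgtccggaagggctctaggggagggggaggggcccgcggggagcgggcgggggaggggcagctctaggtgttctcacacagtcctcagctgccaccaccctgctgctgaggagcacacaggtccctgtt
Ace, chr11:105967698-105967997, plus strand: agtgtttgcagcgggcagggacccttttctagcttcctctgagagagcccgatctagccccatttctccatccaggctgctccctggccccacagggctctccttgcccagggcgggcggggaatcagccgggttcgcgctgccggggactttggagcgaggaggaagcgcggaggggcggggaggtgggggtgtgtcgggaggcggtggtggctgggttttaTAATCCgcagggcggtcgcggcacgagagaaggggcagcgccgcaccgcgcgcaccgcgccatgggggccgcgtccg
Pla2g5, chr4:138819208-138819507, minus strand: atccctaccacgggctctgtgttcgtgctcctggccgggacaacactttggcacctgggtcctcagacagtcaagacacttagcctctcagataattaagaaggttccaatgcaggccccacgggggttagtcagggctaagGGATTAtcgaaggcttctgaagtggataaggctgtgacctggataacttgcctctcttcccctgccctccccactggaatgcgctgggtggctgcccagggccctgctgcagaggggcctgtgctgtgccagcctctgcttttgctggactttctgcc
The letters occurred in 4 of the 32 windows of ranked genes (12.5%), beside 2296 of 32619 windows of all genes (7.04%, chromosomes 18, Y and the mitochondrial genome left out). A match is a string of letters and not a measured binding site, and 4 windows are too few to read a difference from.

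Members took a larger share of the CD45- sort in the early sample than later. Of 2760 early CD45- cells 273 were members (9.89%, exact Clopper-Pearson 95% interval 8.80 to 11.1), of 1617 medium cells 48 (2.97%, 2.20 to 3.92) and of 2299 late cells 49 (2.13%, 1.58 to 2.81). The early libraries had shares of 11.5%, 10.6%, 9.63% and 7.07%. The medium libraries had 2.67%, 3.04%, 2.93% and 3.17%, and the late libraries 1.01%, 2.74%, 2.43% and 2.01%. Every early library lay above every medium and late library, medium and late libraries overlapped, and early was highest within each of the 3 sequencing runs. With 1 column per barcode the shares were 9.35%, 2.96% and 2.01%. A share is of the sort as recovered, and how much choroid plexus was dissected or dissociated and how many other CD45- cells each sample gave were not measured apart from it. Other CD45- cells with a UMI of human EGFR were 7 of 2487 in early, 334 of 1569 in medium and 985 of 2250 in late. They stayed in the totals.

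**Figure D1:**
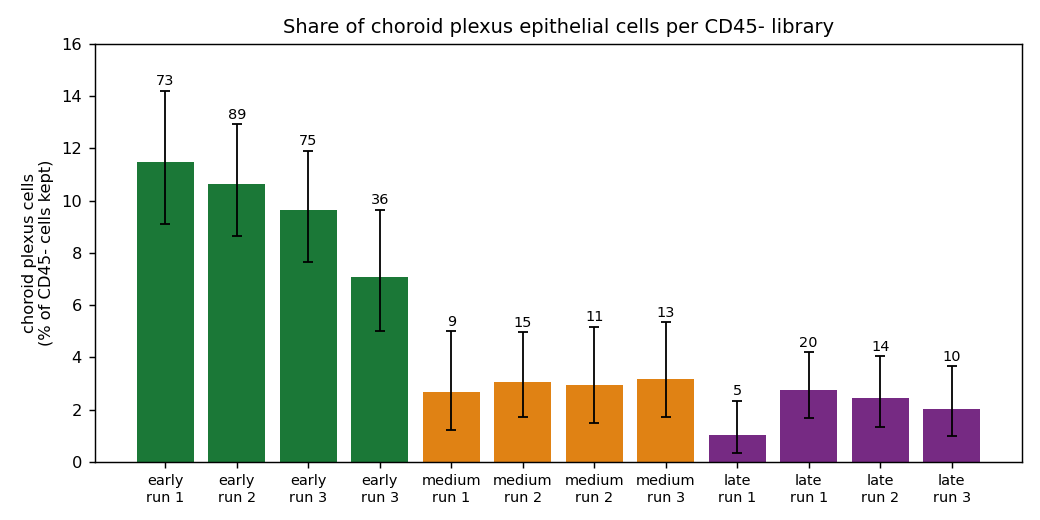
Share of CD45- cells counted as choroid plexus epithelial cells, in percent (vertical axis), for each of the 12 CD45- libraries, labelled by stage and sequencing run. Bars are shares, the lines on them exact Clopper-Pearson 95% intervals, and the number above each bar is its count of members. The 4 early libraries lie between 7.07% and 11.5% and the other 8 at or below 3.17%.

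Secreted proteins were led by a few abundant transcripts. Of 29 genes in a list of proteins known in cerebrospinal fluid or secreted by this epithelium, 10 were at least 4-fold higher in members than in other CD45- cells and 8 at least 4-fold lower, beside 4.62% and 25.8% of the 21767 genes tested. The median log2 ratio of the list was 0.56, that of all genes -0.84. Since the rule chose the cells on this contrast and used Ttr, which is in the list, the counts are not evidence on the list. All levels are CPM, not scaled for transcript length because inDrop tags 1 end of each transcript, and they compare cells for 1 gene rather than genes with each other.

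Enpp2, which encodes autotaxin, the secreted enzyme that makes lysophosphatidic acid, stood at 16245, 23515 and 24724 in early, medium and late members and 1324 in other CD45- cells, a log2 ratio of 3.82 (95% interval 3.80 to 3.84). Igf2, an insulin-like growth factor, stood at 1159, 1715 and 2592 against 54.1, a log2 ratio of 4.74 (95% interval 4.65 to 4.84), and its binding protein Igfbp2 at 690.5, 1005 and 1019 against 38.6. For both the lowest stage in members lay far above the other cells. Sostdc1, a secreted antagonist of BMP and Wnt signals, stood at 791, 1276 and 1064 against 4.02, and Spint2, a protease inhibitor, at 342, 651 and 487 against 6.92. The gene 1500015O10Rik, which encodes the secreted peptide precursor augurin, stood at 442, 848 and 376 against 31.4. The growth factor Tgfb2 stood at 199, 232 and 263 against 38.8. Clu, an extracellular chaperone, was higher than in the other cells as a whole at 1090.0, 1673 and 1772 against 127, but not than in ciliated ependymal cells at 2072.

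Other proteins often named with this tissue had pooled levels in the members below those of the other sorted cells, or close to them. Trf, transferrin, stood at 287, 126 and 256 against 1051 in other CD45- cells, among which oligodendrocytes are abundant, and the protease inhibitor Cst3 at 765, 1049.7 and 759 against 1623. Ptgds, which makes prostaglandin D, stood at 1182, 1099 and 1213 against 3135. By cells the order was another for Ptgds and Cst3. With each cell thinned to 2000 UMIs, Ptgds was found in 82.4% of members and 42.4% of other CD45- cells, Cst3 in 65.7% and 41.3%, and Trf in 35.5% and 52.7%, so no order is read for Ptgds and Cst3. Vegfa, the factor that keeps the capillaries below the epithelium fenestrated, stood at 46.6, 44.4 and 68.1 against 37.7, a log2 ratio of 0.39 (95% interval 0.08 to 0.67).

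The ion and water machinery of fluid secretion was present, with some channel genes not found. Of 35 genes tested, 14 were at least 4-fold higher and 5 at least 4-fold lower than in other CD45- cells, beside 4.62% and 25.8% of all genes, with a median log2 ratio of 0.82. Against 129 ciliated ependymal cells of the same sort, 13 of 35 were higher and 3 lower, beside 6.23% and 16.4% of 13228 genes, and against 401 endothelial cells 16 of 34 were higher and 3 lower, beside 9.12% and 16% of 13688 genes. Those groups were picked by markers of their own (ciliated and endothelial lists), and these counts are descriptions too. Median log2 ratios were 1.43 and 1.55, and those of all genes -0.39 and -0.35.

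Of the 4 Slc4 bicarbonate carriers in the list, 3 were higher in members and 1 was lower. Slc4a5, a sodium bicarbonate cotransporter, stood at 197, 249 and 256 in early, medium and late members, whereas all 6306 other CD45- cells together held 5 UMIs of it, a log2 ratio of 9.83 (95% interval 8.74 to 11.60). Slc4a10, which brings bicarbonate into the cell with sodium, stood at 371, 471 and 568 against 58.8, and no UMI was found in ciliated cells. Slc4a2, an exchanger of chloride for bicarbonate, stood at 237, 421 and 545 against 56.2. In each of the 3 samples these 3 carriers were above the level of other CD45- cells pooled over all stages. Slc4a7, another sodium bicarbonate cotransporter, stood lower at 11.5, 12.3 and 9.73 against 61.6. Among the carbonic anhydrases that supply bicarbonate, membrane-bound Car12 stood at 564, 724 and 834 against 32.7, whereas cytosolic Car2 stood at 1116, 968 and 1191 against 1945. With each cell thinned to 2000 UMIs Car2 was found in 77.8% of members and 48.2% of other CD45- cells, so no order is read for it either.

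Several channel genes were higher in members, and others were not found. Kcne2, a potassium channel accessory subunit, stood at 223, 249 and 289 in members against 0.427 in other CD45- cells. Kcnq1, a pore subunit it can accompany, had 0 UMIs in all members, as did the chloride channel gene Cftr, which allows a level of up to 1.32 CPM. Aqp1, the water channel of the apical membrane, stood at 108, 126 and 143 against 10.9, and Aqp4, the water channel of astrocytes, had 2 UMIs in members. The cation channel Trpm3 stood at 455, 352 and 506 against 9.4 and the calcium pump Atp2b3 at 112, 170.0 and 249.8 against 5.25. Kcnq1 and Cftr were named after their values were seen.

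A cotransporter that many cells use was close to the rest of the sort, while its kinase was higher in members. Slc12a2, the sodium, potassium and chloride cotransporter of the apical membrane, stood at 575, 833 and 746 in members and 611 in other CD45- cells, a log2 ratio of 0.08 (95% interval -0.00 to 0.15). It was 199 in ciliated and 301 in endothelial cells, so the members were above both neighbours. Stk39, a kinase that activates Slc12a2, stood at 789, 665 and 895 against 68.6. Atp1b1, a subunit of the sodium pump, had a log2 ratio over other CD45- cells of 1.58, and Fxyd1, a regulator of that pump, of 3.10.

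Many nutrient, vitamin and hormone carriers were higher in members than in the rest of the sort. Of 40 tested, 16 were at least 4-fold higher and 7 at least 4-fold lower than in other CD45- cells, beside 4.62% and 25.8% of all genes (median log2 ratio 1.58 against -0.84). The proton-coupled folate carrier Slc46a1 stood at 37, 56.7 and 61.6 in the 3 stages against 8.59, beside the folate receptor described above, and the vitamin C carrier Slc23a2 at 135, 153 and 211 against 57.9. The copper carrier Slc31a1 stood at 267, 283 and 289 against 38.8, and the zinc carrier Slc39a12 at 197, 315 and 230.4 against 16.4. In each of the 3 stages these carriers were above their level in the other cells pooled over all stages. The monocarboxylate carrier Slc16a8 stood at 61.3, 83.8 and 48.7, and 3 UMIs of it were found in the other CD45- cells, a log2 ratio of 8.74 (95% interval 7.38 to 11.25).

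Compared with the endothelial barrier, carriers lay on both sides. Against endothelial cells 14 of 36 were at least 4-fold higher and 11 at least 4-fold lower, beside 9.12% and 16% of all genes. Slc2a1, the glucose carrier of the blood-brain barrier, stood at 47.9, 37 and 48.7 in early, medium and late members and 1516 in endothelial cells, while Slc2a12, a sugar carrier of the same family, stood at 174, 209 and 295 against 10.8. Members were thus lower than endothelial cells in Slc2a1 and higher in Slc2a12. The amino acid carrier Slc7a5 had 14 UMIs in members (6.14 CPM) against 765 CPM in endothelial cells, and the lactate carrier Slc16a1 22.8 against 1275. Slco1c1, a thyroid hormone carrier, stood at 136, 261 and 120.0 against 1246.

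Efflux pumps and uptake receptors held genes on both sides of the rest of the sort. Of 22 genes tested, 4 were at least 4-fold higher and 10 at least 4-fold lower, beside 4.62% and 25.8% of all genes, with a median log2 ratio of -1.40 against -0.84. Within early, medium and late, over the genes tested with all stages pooled, the list's median was -0.84, -0.09 and -0.24. A gene with few or no UMIs in a stage leans on the prior there. The prior can lift its ratio, and more so in medium and late, where members held fewer UMIs. Medians within stages, here and for the lists below, are therefore not compared with each other or with the pooled median. Among the higher genes were Abca4, a retinoid flippase, at 66.4, 78.9 and 84.4 against 1.28, Stra6, the membrane receptor for retinol-binding protein, at 68.3, 91.2 and 136 against 15.9, and the lipopolysaccharide-binding protein gene Lbp. Abcb1a, the drug efflux pump of brain capillaries, had 7 UMIs in all members against 1160.2 CPM in endothelial cells, and Abcg2 stood at 7.89 against 442. Lrp2, a large endocytic receptor, had 0 UMIs in members. Abcb1a and Lrp2 were named after their values were seen.

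Junction genes differed between the epithelium and the endothelium. Against endothelial cells 12 of 23 were at least 4-fold higher and 6 at least 4-fold lower, beside 9.12% and 16% of all genes. Against all other CD45- cells 13 of 25 were higher and 6 lower, beside 4.62% and 25.8% (median log2 ratio 2.21). The summed level of the list ran the other way, at 1615, 1732 and 2054 CPM in early, medium and late members. It was 4031, 3037 and 2201 in other CD45- cells, 1712, 2059 and 2289 in ciliated and 5888, 4707 and 4909 in endothelial cells. Cldn2, the claudin of leaky epithelia that passes cations and water, stood at 131, 145 and 363 in early, medium and late members and 0.897 in other cells, and Cldn1, a sealing claudin, at 53.6, 46.8 and 58.4 against 0.769. Cldn5, the claudin of brain capillaries, had 24 UMIs, all in early members, against 2730.1 CPM in endothelial cells, and the vascular cadherin Cdh5 had 0. The keratins Krt8 and Krt18 and the polarity gene Crb3 had log2 ratios over other CD45- cells of 6.97, 7.14 and 7.38, the last from 6 UMIs in those cells. Tjp1, a scaffold of tight junctions, was lower than in other cells at 17.2, 17.2 and 3.24 against 84.4, and its relative Tjp3 higher at 34.5, 41.9 and 32.4 against 0.769.

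Among receptors of hormones and growth factors, those for serotonin, leptin and adenosine were higher in members. Of 25 tested, 5 were at least 4-fold higher and 9 at least 4-fold lower than in other CD45- cells, beside 4.62% and 25.8% of all genes (median log2 ratio -1.78 against -0.84, and -1.83, -0.64 and -0.48 within early, medium and late). The 5 higher genes were Kl and Prlr, which the rule used, Htr2c, a serotonin receptor, Lepr, the leptin receptor, and Adora2b, an adenosine receptor. Htr2c stood at 414, 626 and 739.8 against 13, Lepr at 51.1, 59.1 and 68.1 against 3.63, and Adora2b at 19.8, 12.3 and 9.73 against 2.82. Mouse Egfr had 6 UMIs in all members, a level of 2.63 against 20.5 in other CD45- cells. It is named although it held fewer than the 10 UMIs asked of list genes.

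**Figure D2:**
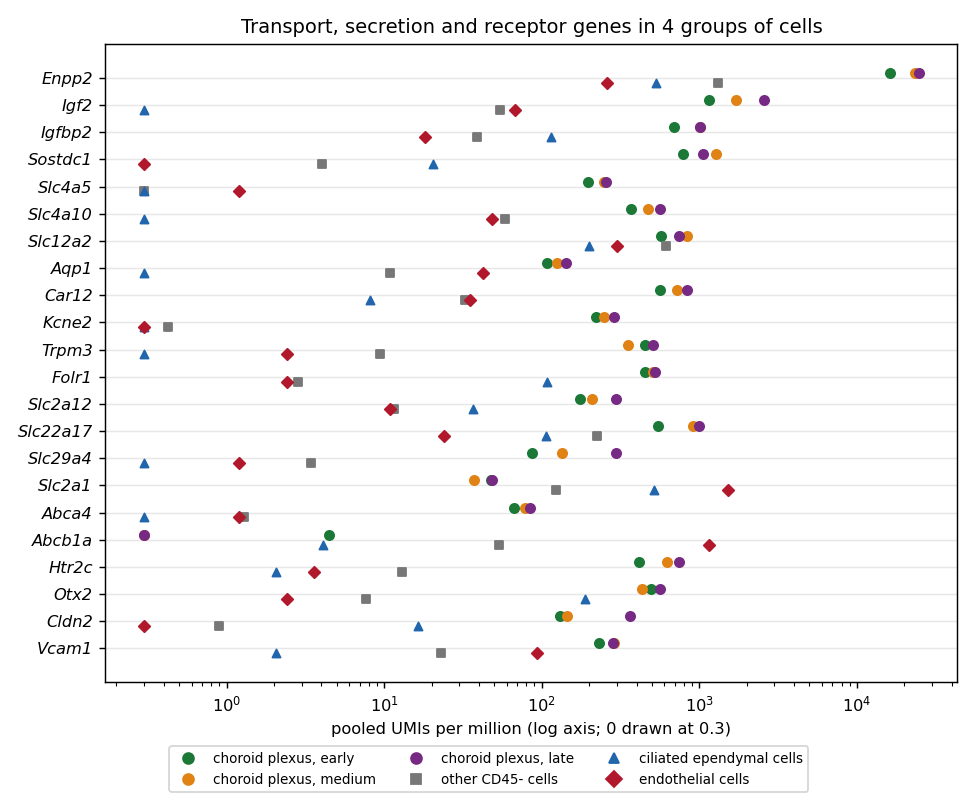
Pooled levels of 22 genes of secretion, transport, junctions and lineage, in CPM on a log axis, with 0 drawn at 0.3. Points are the members of each stage beside all other CD45- cells, ciliated ependymal cells and endothelial cells. The 3 stages of the members lie close together for most genes, and Slc2a1 and Abcb1a are the genes where endothelial cells lie above them by most.

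Several transcription factors of the dorsal midline origin of this tissue were higher in members. Of 21 tested, 8 were at least 4-fold higher and 3 at least 4-fold lower than in other CD45- cells, beside 4.62% and 25.8% of all genes (median log2 ratio 1.40). Otx2 stood at 491, 436 and 565 in early, medium and late members against 7.65 in other and 188 in ciliated cells, and Lmx1a at 46.6, 37 and 68.1 against 0.384 and 2.05. Msx1 stood at 551, 426 and 753 against 14.8. Against ciliated cells, 2 of 18 factors were at least 4-fold higher and 6 at least 4-fold lower, beside 6.23% and 16.4% of all genes, and Sox9 was 221 in members and 859.8 in ciliated cells.

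Motile cilium genes lay between ependyma and the rest of the sort. Of 30 genes, 12 were at least 4-fold higher in members than in other CD45- cells and 6 at least 4-fold lower, beside 4.62% and 25.8% of all genes (median log2 ratio 1.63, and 0.74, 1.61 and 2.92 within early, medium and late). Against ciliated cells none was higher and 23 were lower, beside 6.23% and 16.4% (median -2.97). Foxj1, the master regulator of motile cilia, stood at 59.3, 56.7 and 110.3 in the 3 stages, against 14.4 in other and 424 in ciliated cells. Rsph1 and Cfap126, which encode axoneme proteins, stood at 142 and 152 in members against 602 and 592 in ciliated cells. Tmem212, a defining marker of the ciliated cells at 1626 there, had 0 UMIs in members, and Ccdc153 had 2. The ciliated cells were chosen by Foxj1, Tmem212, Ccdc153 and other genes of this list. In 73 members at least 3 UMIs over at least 2 of the 6 ciliated markers were found.

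Nuclear genes of oxidative phosphorylation were higher as a group. Of 33 tested, 5 were at least 4-fold higher in members than in other CD45- cells and none lower, beside 4.62% and 25.8% of all genes, with a median log2 ratio of 1.59 against -0.84 for all genes. Their summed level was 26477, 20464 and 18312 CPM in early, medium and late members and 6826, 7862 and 8082 in the other CD45- cells of the same stages. Atp5g1, a subunit of the ATP synthase, stood at 1606, 1087 and 1229.7 against 148, and Ndufa1, a subunit of the NADH dehydrogenase, at 564, 529.8 and 389 against 90.2. Mitochondrially encoded transcripts made up a median of 8.81% of UMIs per member (9.12% in early, 10.8% in medium and 4.62% in late). Per other CD45- cell the median was 5.43% (7.29% in early, 5.61% in medium and 3.12% in late). In ciliated cells it was 9.35%, so a high mitochondrial share was not particular to the members. The nuclear sum was thus higher in members of each sample.

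Retinoid, thyroid and xenobiotic genes were mixed, with 7 of 23 at least 4-fold higher and 9 at least 4-fold lower than in other CD45- cells, beside 4.62% and 25.8% of all genes (median log2 ratio -0.90 against -0.84 for all genes, and -0.84, -1.37 and 0.23 within early, medium and late). The list holds Ttr, which the rule used and which made up 183572 of the list's 188246 UMIs in early members. Rdh5, a retinol dehydrogenase, stood at 412, 328 and 289 against 56.6. The quinone reductase Nqo1 stood at 93.2, 69 and 94.1 against 6.37 and the glutathione transferase Gsta4 at 192, 234 and 214 against 21.1. Mt1, a metallothionein, stood at 351 in members and 4135 in ciliated cells.

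Immune genes were low with 1 strong exception. Of 32 genes of antigen presentation, chemokines, cytokine receptors and complement, 2 were at least 4-fold higher and 23 at least 4-fold lower than in other CD45- cells, beside 4.62% and 25.8% of all genes (median log2 ratio -3.06 against -0.84, and -2.73, -3.00 and -1.09 within early, medium and late). Of 23 interferon-stimulated genes 1 was higher and 13 lower (median -2.20). Their summed level was 546, 722 and 379.6 CPM in early, medium and late members and 518, 1786 and 379 in other CD45- cells, so that as a sum they were lower in medium only. Vcam1, an adhesion molecule for leukocytes, stood at 229.7, 286 and 286 in early, medium and late members against 23 in other and 94 in endothelial cells. The interleukin receptor gene Il1r1 was the second higher gene, at 14, 9.86 and 42.2 against 3.76. H2-K1 and B2m, subunits of class I antigen presentation, stood at 68.3, 163 and 87.6 and 89.3, 133 and 58.4 against 519 and 734. The 1 higher interferon-stimulated gene was Ifi27, at 344, 490.4 and 249.8 against 81.3.

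Immediate-early and heat shock genes, which cells switch on within minutes of dissociation or other stress, were far lower in members than in the cells sorted with them. None of 24 was at least 4-fold higher and 17 were at least 4-fold lower than in other CD45- cells, beside 4.62% and 25.8% of all genes (median log2 ratio -3.28), and 20 were lower than in endothelial cells, beside 16% (-4.69). Their summed level was 2452, 2883 and 2125 CPM in early, medium and late members and 10388, 11222 and 9894 in other CD45- cells. Fos stood at 123, 281 and 48.7 against 2508, and Egr1 at 42.8, 73.9 and 16.2 against 1083. The constitutive chaperone genes Hspa8 and Hsp90aa1 differed little, with log2 ratios of -0.03 and 0.26.

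**Figure D3:**
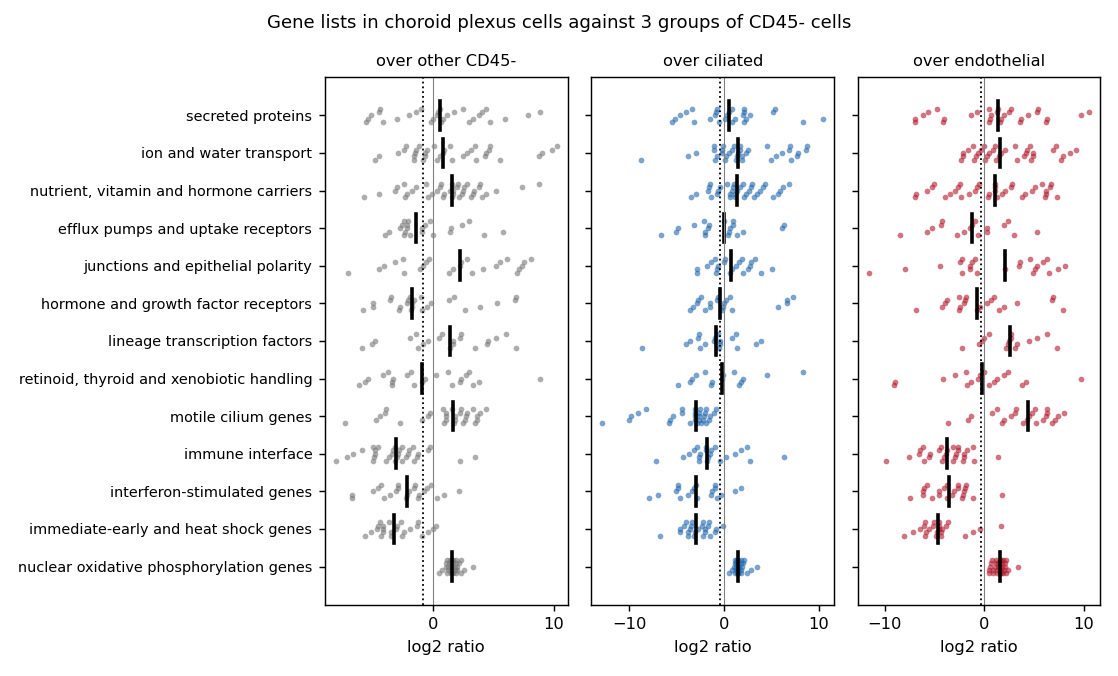
Log2 ratio of pooled levels of each gene in 13 fixed lists, in members over other CD45- cells, ciliated ependymal cells and endothelial cells (3 panels). Points are genes with a prior of 0.5 counts, black bars list medians and dotted lines the median of all genes tested. Oxidative phosphorylation genes lie above 0 in all 3 panels, immediate-early genes mostly below, and cilium genes change side between ciliated and endothelial cells.

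Because Ttr alone stood at 122340 CPM over all members, the ratios were also taken with Ttr and mitochondrial genes left out of the totals. The median of all genes then moved from -0.84 to -0.57 against other CD45- cells. With that scaling 1241 genes were higher and 4787 lower, in place of 1005 and 5616. Ratios of genes without a UMI in 1 group depend on the prior of 0.5 counts, and were taken again as bounds, with 3 counts over the group in place of 0. On that basis 3799 genes were lower than in other CD45- cells and the median of all genes was -0.40. The efflux and uptake list then had 7 lower genes and a median of -0.78, the receptors 7 and -1.06, the retinoid list 8 and -0.70, the immune list 17 and -2.31, and the interferon-stimulated genes 12 and -2.03. The carriers had 6 lower genes, the junctions 5 and the cilium genes 4, with unchanged medians. The secreted, ion and water, immediate-early and oxidative phosphorylation lists had no tested gene at 0 in either of these groups. Against ciliated cells 493 genes and against endothelial cells 983 were higher as bounds, among them 15 and 13 carriers and, against ciliated cells, 1 lineage factor.

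Cells were also compared at equal depth, by thinning each to 2000 UMIs, which left out 46 members and 2192 other cells as too shallow. Of the 324 thinned members, 30.2% held a UMI of Slc4a5 and 32.4% of Kcne2, against 0.0486% and 0.0243% of 4114 thinned other CD45- cells. Otx2 was found in 50.3% against 1.09%, Htr2c in 48.1% against 1.17% and Igf2 in 85.8% against 1.73%. Without thinning the shares of members were 52.2%, 54.3%, 72.2%, 60% and 93.8%. At this depth a cell without a UMI may still express the gene.

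The members were not uniform. Ttr made up a median of 12.4% of a member's UMIs, from 0.941% to 43.2%. The Ttr share of non-mitochondrial UMIs went along with the mitochondrial share, with a Spearman rho over cells of 0.708 (0.772 in early, 0.286 in medium and 0.681 in late). Cells share libraries and stages and the value is a description. A group of 96 members (25.9%) had under 3% mitochondrial UMIs, a limit chosen after the values were seen. They made up 73 early, 6 medium and 17 late members and came from all 12 CD45- libraries. Of other CD45- cells 1231 (19.5%) lay under the same limit, so low mitochondrial shares were not particular to the members. Whether transcripts of those other cells split in the same way was not tested.

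Members with few mitochondrial UMIs were low in transcripts of most lists, transport and receptors among them, but not in those of lineage factors, cilia or oxidative phosphorylation. Their median Ttr share of non-mitochondrial UMIs was 4.40% against 16.7% in the other 274, while UMIs per cell were 4655 against 5271 and genes per cell 2120 against 1781. Levels in this split are UMIs per 1000000 UMIs outside mitochondrial genes and pseudogenes, not the CPM used elsewhere, and compare the 2 groups only. On that scale Enpp2 stood at 7632 against 27969.6, Slc12a2 at 181 against 992, and Folr1 at 215 against 701. These were all lower in the group with few mitochondrial UMIs, by log2 ratios of -1.87 (95% interval -1.92 to -1.82), -2.45 (95% interval -2.79 to -2.14) and -1.70 (95% interval -2.02 to -1.41). Otx2 and Msx1 ran the other way at 780.2 against 542 and 956 against 589, and Clic6 stood at 2338 against 2061. Of 34 carriers 26 were at least 2-fold lower and none 2-fold higher (median log2 ratio -1.39), and of 33 ion and water transport genes 21 were lower and none higher (-1.31). Over all 10748 genes 1554 were lower and 1305 higher, with a median of 0.28. The drop was not particular to transport, since 14 of 16 receptors were lower (-1.55), 10 of 15 efflux and uptake genes (-1.52), 11 of 17 immune genes (-1.50), 14 of 24 immediate-early genes (-1.30), 12 of 24 secreted proteins (-0.98) and 8 of 22 junction genes (-0.38). Of 15 lineage factors 1 was lower and none higher (0.48), of 23 cilium genes 1 was lower and 4 higher (0.66), of 15 retinoid genes 3 and 1 (0.29), of 10 interferon-stimulated genes 1 and 2 (-0.11), and of 33 oxidative phosphorylation genes none either way (0.33). Of the 96, 44 held at least 3 UMIs over 2 markers of another cell type, against 121 of the other 274. The part of RNA quality in this split was not tested.

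**Figure D4:**
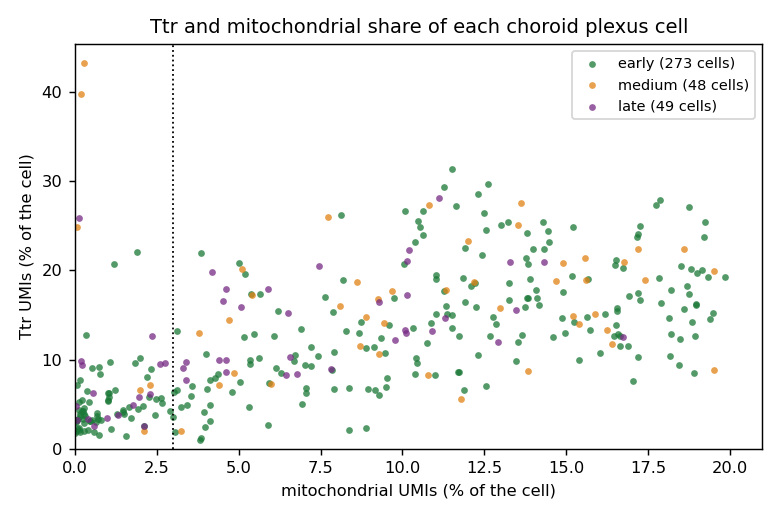
Ttr as a percent of all UMIs (vertical axis) against mitochondrial UMIs as a percent (horizontal axis) for each of the 370 members, by stage. The dotted line marks 3% mitochondrial UMIs. The 96 members to its left have a median Ttr share of 4.37% and the 274 to its right of 14.7%.

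Between stages most list genes were not called, and transport genes were called higher about as often as all genes. Levels of members were compared as medium over early and late over early, which share the early sample, and a gene was called when it differed at least 2-fold and its 95% counting interval left out a ratio of 1. With 48 medium and 273 early cells, 5.93% of 11150 genes were called higher in medium and 6.73% lower, and with 49 late cells 8.88% of 11065 were called higher in late and 3.35% lower. Without Ttr and mitochondrial genes in the totals, 790 genes were higher and 588 lower in medium in place of 661 and 750, and 851 were higher and 430 lower in late in place of 983 and 371. With 1 column per barcode the counts were 647 and 754, and 991 and 352, and with 3 counts in place of 0 those lower were 671 and 320. With the member richest in each gene left out of each stage, 246 were higher and 1303 lower in medium, and 426 and 602 in late. Leaving out 1 of 48 or 49 members takes more of a stage's UMIs than 1 of 273, so that these counts are shifted towards lower by construction and their balance is not read. The members' mitochondrial share also differed by stage, as given above. Without members under 3% mitochondrial UMIs, 697 genes were higher and 585 lower in medium, and 840 and 347 in late, but of the calls in all members 502 of 661 and 476 of 750 were shared in medium, and 534 of 983 and 182 of 371 in late. A call here says that the pooled UMIs differ by more than counting error and not that the stages do.

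Over the 3 transport lists (ion and water, carriers, efflux and uptake) 4 of 82 genes were called higher in medium (4.88%) and 1 lower, and 9 of 80 higher in late (11.2%) and none lower. All genes were called higher at 5.93% and 8.88%, as given above. The ion and water list had 3 of 33 higher in medium (Trpv4 and Slc20a1 among them) and 3 of 32 in late (Slc4a2 and Atp2b3 among them), and none lower in either. Slc4a2, at the levels given above, had a late over early log2 ratio of 1.20 (95% interval 0.93 to 1.47), and Atp2b3 one of 1.16 (95% interval 0.75 to 1.55). Slc12a2, Slc4a5, Aqp1 and Kcne2 were not called in either comparison.

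Of the carriers, none was called in medium, and in late 4 of 33 were higher and none lower, beside 8.88% and 3.35% of all genes. Slc29a4, a monoamine transporter, stood at 86.8, 136 and 298 in early, medium and late members, a late over early log2 ratio of 1.78 (95% interval 1.38 to 2.17). Slc22a8, an organic anion carrier, stood at 42.1, 34.5 and 136, a log2 ratio of 1.70 (95% interval 1.10 to 2.27). Slc27a1, a fatty acid carrier, stood at 29.4, 32 and 71.4, and Slc19a1, a folate carrier, at 23.6, 27.1 and 48.7. The direction of Slc19a1 turned without members with UMIs of another cell type, to a log2 ratio of -0.15, and within sequencing run 1, to -0.042. At 2000 UMIs per cell, Slc29a4 was found in 13.1% of early, 20% of medium and 34.9% of late members. With the member richest in each gene left out of each stage, 2 of the 4 carriers and 6 of the 9 transport genes were still called in late.

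In the other lists no more than 4 genes of a list were called higher in a stage, and some of these shares lay above that of all genes. The immune list had 4 of 16 higher in medium and 1 lower, against 5.93% and 6.73% of all genes. Cx3cl1, a chemokine gene, stood at 11.5, 41.9 and 45.4 in early, medium and late members, and Cxcl1, another, rested on 2 medium members. The receptors had 3 of 16 higher in medium, Igf1r at 36.4, 81.3 and 29.2 among them, and none called in late. Of the lineage factors 3 of 15 were higher in late, Rfx3, a factor of cilium genes, at 53.6, 66.5 and 123 among them, and of the junction genes 3 of 22 were higher and 2 lower, against 8.88% and 3.35% of all genes. Without the member richest in each gene, 2 of the 4 immune genes, 1 of the 3 receptors, 2 of the 3 lineage factors and 1 of the 3 junction genes were still called higher. Igf2 stood at 1159, 1715 and 2592 and was higher in late with a log2 ratio of 1.16 (95% interval 1.04 to 1.28). Cldn2 was higher in late, with 1.48 (95% interval 1.13 to 1.81). Htr2c, at levels of 414, 626 and 739.8, was under 2-fold in both comparisons, and at 2000 UMIs per cell it was found in 41.9% of early, 53.3% of medium and 76.7% of late members. Of 33 oxidative phosphorylation genes only Atp5k was called, lower in late at 724, 689.9 and 347, and the list medians were -0.37 in medium and -0.54 in late. Cox8b, the cytochrome oxidase subunit among the 30 leading genes and not in that list, was lower in both, with -1.91 (95% interval -2.47 to -1.42) and -1.55 (95% interval -2.13 to -1.06).

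Pooled levels of some immediate-early genes differed between the members of the 3 samples. In medium, 3 of 24 were higher (Fos, Ier2 and Dusp1) and 5 lower, and in late none was higher and 7 were lower (Fos, Jun, Junb, Egr1, Atf3, Btg2 and Klf4). Of all genes 5.93% were higher and 6.73% lower in medium, and 8.88% and 3.35% in late. Dusp1, a phosphatase, stood at 110.4, 621 and 71.4 in early, medium and late members, and Fos at 123, 281 and 48.7. Both were highest in medium, as was the sum of the list (2452, 2883 and 2125 CPM), although its median was lower there than in early. Members under 3% mitochondrial UMIs, in which 14 of the 24 genes were lower, made up 26.7% of early, 12.5% of medium and 34.7% of late members. Their part in these values was not tested. Without members with UMIs of another cell type, Egr1 turned to a late over early log2 ratio of 0.79. The list medians were -0.50 in medium and -1.27 in late, beside -0.11 and 0.19 for all genes. With the genes at 0 in medium (6) or late (5) placed at 3 counts, 4 were lower in medium and 6 in late and the medians were -0.36 and -0.78.

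**Figure D5:**
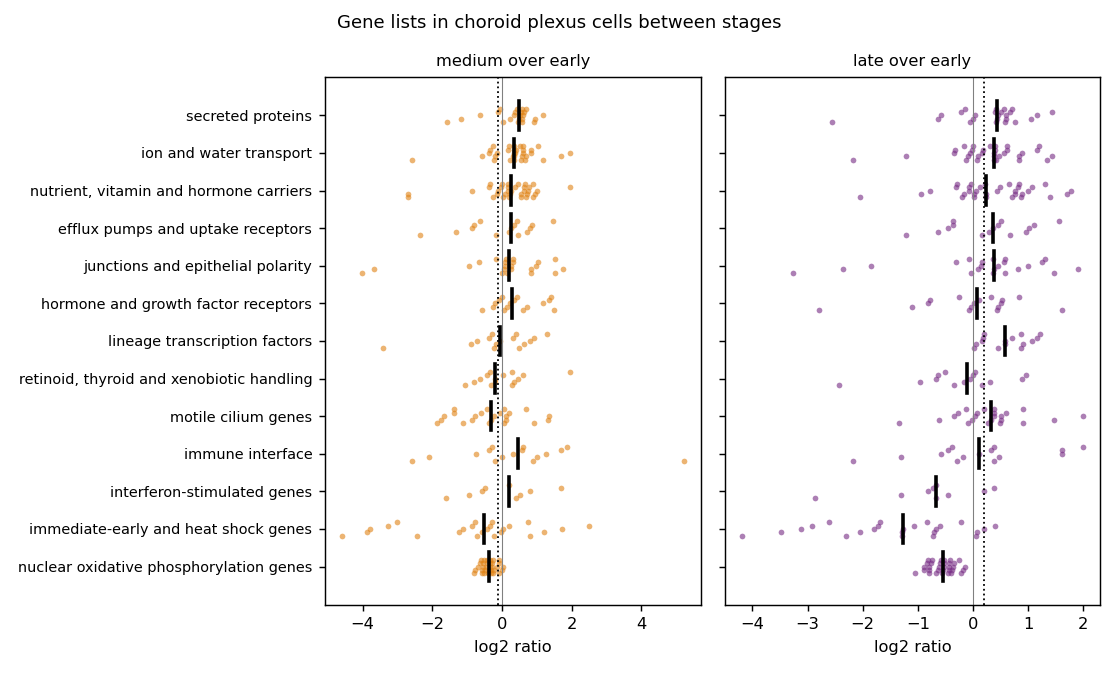
Log2 ratio of pooled levels of list genes between stages of the members, medium over early and late over early, grouped by list, with a prior of 0.5 counts. Most genes of the secretion and transport lists lie within 1 log2 unit of 0, and the median of the immediate-early genes is -0.50 in medium and -1.27 in late.

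The genes with the largest stage ratios included transcripts typical of other cell types, and several rested on few cells. Lowest in medium were Gatm, Tspan2, Cd83, Hba-a2, Mal, 2410006H16Rik, Phf6, Tmcc3, Ctss and Kbtbd2. Mal, a myelin protein gene, had 169 UMIs in early members, 1 in medium and 2 in late. Lowest in late were Hbb-bs, Mobp, Tspan2, Cd83, Tppp, Ptdss1, Tmem88b, Klf4, Il1b and Lipo3. Hbb-bs, a haemoglobin gene, had 143 UMIs in 104 early members, 2 in medium and 0 in late, and Il1b, an inflammatory cytokine gene, had 45 UMIs in 2 early members and none later.

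Highest in medium were Tspyl5, 6330403K07Rik, St6galnac5, Pcdh18, Dlx2, Ece2, Tubb2b, Nnat, Ccn1 and Cxcl1. Tubb2b, a tubulin of young neurons and progenitors, had 5, 66 and 11 UMIs in early, medium and late members, with 97.0% of those in medium from 1 of 3 members that held any. Highest in late were Dlx2, Stmn2, Tubb3, Dcx, Telo2, Zkscan7, Ksr1, Jade3, Zfp81 and Ngfr. Stmn2, Tubb3 and Dcx, all of neurons, had 12, 12 and 10 UMIs in late members against 1, 2 and 2 in early ones. With so few UMIs in 1 of the stages no ratio is given for these genes.

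Transcripts of oligodendrocytes, erythroid cells and microglia were highest in early members, as they were in the early cells around them. The 6 oligodendrocyte markers summed to 1355, 131 and 165 CPM in early, medium and late members and 39996, 24016 and 17893 in other CD45- cells, with 6, 5 and 5 of the 6 above 0 in members. The erythroid markers summed to 217, 7.39 and 13 in members and 6818, 58.4 and 17.4 in other cells, with 4, 2 and 2 of 5 above 0. The microglia markers summed to 118, 32 and 22.7 and 2141, 863 and 276, with 6, 3 and 2 of 6 above 0. In 165 members (129 early, 20 medium and 16 late) at least 3 UMIs over at least 2 markers in the list of another type were found. Of these members 73 met this for the ciliated list, which holds Foxj1. That list summed to 267, 232 and 331 CPM in early, medium and late members and 342, 115 and 69.1 in other CD45- cells. Leaving out the 165 may thus have removed cells for transcripts of their own. Without the 165 members 205 were left, and medium over early had 512 genes higher and 647 lower, and late over early 686 and 278. Of the calls in all members, 248 of 661 and 258 of 750 were among them in medium, and 366 of 983 and 102 of 371 in late. Apod, secreted by oligodendrocytes and fibroblasts and lower in medium at 47.2, 14.8 and 6.49, then turned to a log2 ratio of 0.22. Egr1 and Slc19a1 turned in late over early, as given above.

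Stage and sequencing run could be compared where a run held at least 20 members of both stages. In run 2, with 26 medium and 89 early members, 517 of the 530 genes called higher in medium over all runs and tested there kept their direction, and 657 of 659 called lower. In run 1, with 25 late and 73 early members, 677 of 692 genes called higher in late and 255 of 262 called lower kept theirs. Fewer were still called within the run, 329 and 394 in medium and 405 and 135 in late. Without the late library of run 1 that held 20 of the 49 late members, 419 of the 983 genes called higher in late and 123 of the 371 called lower were still called, and without the medium library with the most members (15 of 48) 323 of 661 and 374 of 750. Cells of 1 run are part of the cells of all runs, so these counts are not independent.

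The human EGFR transgene was near its floor in the members, and was low in ciliated, endothelial and all early cells as well. A UMI was found in 0.281% of early, 21.3% of medium and 43.8% of late other CD45- cells. In ciliated cells of all stages the share was 2.33% and in endothelial cells 1.50%. In medium and late it was 9.09% of 22 and 6.67% of 15 ciliated cells, and 2.03% and 3.57% of endothelial cells. Members of those stages were close to the endothelial cells, at 2.08% and 4.08%. The early sample thus gave no contrast for this transgene. Of 370 members 3 held a single UMI of it (0.811%, 0.168 to 2.35), 1 medium and 2 late, and 0 of 273 early members did, which at the floor of 3 counts allows a share of up to 1.10% (exact Clopper-Pearson upper limit 1.34%). In all other CD45- cells together the human TGFA sequence had 3 UMIs. A UMI of Cre was found in 0.0804% of early, 13.9% of medium and 26.1% of late other CD45- cells. The human TGFA and Cre sequences had 0 UMIs in all members, which allows up to 0.811% (exact upper limit 0.992%). These are limits on cells with a UMI and not on cells that carry the transgene.

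Ttr was also found outside the members at a low level that differed by stage. Members held 97.1% to 99.5% of the Ttr UMIs of each CD45- library. In the other cells of those libraries Ttr stood at 129 to 939 CPM in early, 75.9 to 277 in medium and 13.4 to 64.7 in late, and a UMI of it was found in 21.1% to 34.4%, 12.8% to 16.5% and 4.07% to 22.0% of cells. In CPM the early and medium libraries overlapped and every late library lay below both, and by share of cells the early and medium libraries did not overlap while the late libraries overlapped both. The Ttr threshold of 20 UMIs in the rule was passed by 31 other CD45- cells, those described above. Their UMIs are part of the levels just given, which are therefore not an even background. Per other CD45- cell Ttr had a median of 0 UMIs and a maximum of 434.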

How the data were processed

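Viable CD45+ and CD45- cells of 3 EGFR-driven tumor samples were captured by inDrop in 24 libraries, 12 of them CD45-, over 3 sequencing runs. The authors deposited raw UMI counts per gene and cell, made with RapMap in the bcbio-nextgen pipeline on the GRCm38 transcriptome (Ensembl v.94) with 3 transgenes added, after calling cells against droplets of at most 150 UMIs at an FDR of 0.1%. The study's methods describe removing ambient RNA with DropletUtils and doublets with scDblFinder before downstream analysis, and whether the deposited counts precede or follow these steps is not stated. A second deposited table, of other (text) values written by the authors, gives each library's sort, stage and run, and groups were taken from it through the labels. All columns of the count table were used. Of 20811 cells, 17894 passed the filters. Gene locations came from GENCODE M21.

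Counts were summed over the cells of a group and expressed as CPM, and log2 ratios used a prior of 0.5 counts over genes of at least 10 UMIs in both groups together, with exact 95% counting intervals. Shares have exact Clopper-Pearson intervals. Floors are 3 counts. UMI intervals and floors cover counting error only. Members held 1567038, 405827 and 308209 UMIs in early, medium and late. No test was made, because the rule used the same counts and each stage is 1 sample, and the spread between libraries of a stage is technical. Ciliated cells held at least 3 and endothelial cells at least 5 UMIs of their markers.

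The members and the 13 gene lists were chosen with earlier results of these data known. Named were the markers and Prlr, list genes with at least 10 UMIs in members or that define a cell type, the 30 genes with the highest ratio over other CD45- cells, and the 10 highest and lowest called stage ratios, leaving out mitochondrial genes, pseudogenes, Xist, Tsix and Y-linked genes. Kcnq1, Cftr, Abcb1a, Lrp2 and Egfr were named with fewer UMIs than that. In the lists, 2 names had no row. Some list genes and 1 allele of the mice are not reported here. Alternatives were another prior, scaling, cell filter, count minimum, thinning, each library, sample or run in turn, and, chosen after seeing the data, 1 column per barcode, members of at least 3% mitochondrial UMIs and each gene without its top member. The code was tested on simulated data. Python 3.11.15, NumPy 2.4.6, SciPy 1.17.1, pandas 2.3.3, scanpy 1.11.5 and matplotlib 3.10.9 were used.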

Additional observations from a re-analysis of the deposited data

Results flagged for a closer look

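In the CD45+ sort, which no comparison above used, 9 of 11218 cells met the same rule (0.0802%, 0.0367 to 0.152), 4 of them early, 2 medium and 3 late. They held a median of 5037 UMIs and between 123 and 2557 Ttr UMIs, 15.8% of their UMIs in all. A UMI of Ptprc, the gene of CD45 itself, was found in 1 of them and in 3 of the 370 members of the CD45- sort, and 3 of the 9 held at least 3 UMIs over 2 or more microglia or leukocyte markers. Whether these were mis-sorted cells or droplets with more than 1 cell was not tested.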

How the results depend on the processing

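Depth and cell number limit these values: with 48 and 49 members, a stage ratio of a low gene can rest on a few UMIs, and no alternative replaces a second sample per stage. A limit of 10% mitochondrial UMIs left 204 members (145 early and 23 medium), and leaving out members with UMIs of another cell type left 205 (144 early and 28 medium). With no filter on cells the early share was 8.44%. Without the late library of run 1 that held most late members (20), 29 late members remained. Leaving out 1 library at a time gave 281 to 365 members, 184 to 273 in early, 33 to 48 in medium and 29 to 49 in late.

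Against other CD45- cells, a prior of 2 counts gave 3366 genes at least 4-fold lower and moved the median of all genes to -0.34. Against ciliated cells it gave 376 genes higher, and a minimum of 50 UMIs gave 446 higher and 711 lower. That minimum gave 739 higher and 967 lower against endothelial cells, by construction from fewer genes tested. Leave-one-out ranges were 870 to 1017 higher and 4187 to 5531 lower against other CD45- cells, 731 to 900 and 1446 to 2025 against ciliated and 1031 to 1308 and 1878 to 2009 against endothelial cells.

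Between stages, thinning to 2000 UMIs per cell, which leaves fewer counts, gave 264 genes higher and 218 lower in medium, and 422 and 156 in late. Without the top member of each gene in each stage, which by construction lowers the smaller stages more, the counts were 246 and 1303 in medium, and 426 and 602 in late. Leave-one-out gave 534 to 717 higher and 613 to 820 lower in medium, and 815 to 1017 and 289 to 392 in late. Apod in medium over early (log2 ratio 0.22), and Slc19a1 (-0.15) and Egr1 (0.79) in late over early, reversed without members with UMIs of another cell type. Slc19a1 also reversed within run 1 (-0.042). The cause was not tested. Of the other values for single genes and medians, 7176 were counted as unchanged, 520 single genes fell short of the threshold or call and 71 medians moved. For a single gene, unchanged means the same direction and side of the threshold. A list median was unchanged within the standard deviation between samples or, between stages, over the list's genes. The median of all genes was held to a fixed margin. Direction was not checked for medians. No paired analysis was possible because the runs repeat the same 3 suspensions and no test was made.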
